A study of Mus musculus with 10 samples.

Results

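The mouse miR-23, miR-27 and miR-24 clusters make small RNAs from a pair of genomic loci, and 8 of their mature miRNAs were followed here among the 721 miRNAs listed in the deposited tables. They were chosen by name: miR-23a-3p, miR-23b-3p, miR-27a-3p, miR-27b-3p, miR-27b-5p, miR-24-3p, miR-24-1-5p and miR-24-2-5p. All 8 were listed in the brown adipose tissue (BAT) table and passed its filter on low counts, which left 199 miRNAs. In plasma 7 were listed, all but miR-24-1-5p, and 5 passed a filter that left 182. The libraries hold microRNA from small extracellular vesicles (sEV), the nanometre-scale particles that cells release, taken from BAT or plasma of C57BL/6J mice. They form 4 groups: Exe BAT (n = 3), Sed BAT (n = 3), Exe plasma (n = 2) and Sed plasma (n = 2). Exe is read as the exercised group and Sed as the group without training, from the titles and from a design described as before and after exercise. The labels nevertheless give every library, Sed included, sessions of 90 min held 2 times a day over 4 weeks. They give neither age nor sex, and they do not say whether replicates are separate animals or pools, and every p-value therefore rests on the spread among libraries, which may be technical.

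A miRNA hairpin is cut into a duplex whose arms are named 5p and 3p after the end of the hairpin they come from. One arm usually stays in the Argonaute protein and guides it to messenger RNAs through the seed, bases 2 to 8, while the other arm is usually degraded. In these clusters the 3p arms are the abundant ones. The miR-27 family is known in mouse adipocytes as a brake on fat cell differentiation and on the thermogenic programme, with Pparg and Prdm16 among its targets. The miR-23 and miR-24 families are best known from endothelial cells and heart muscle, where they act on vessel growth and cell survival.

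The a-cluster (Mir23a, Mir27a and Mir24-2) lies on the plus strand of GRCm38 at chr8:84208518-84208921, a span of 404 bases. Apart from an antisense miRNA gene, Mir3074-2, its only annotated neighbour in contact is the long non-coding RNA Gm26532, 1 exon of which overlaps Mir24-2 by 2 bases. The b-cluster (Mir23b, Mir27b and Mir24-1) lies on the plus strand at chr13:63300484-63301275, a span of 792 bases within the protein-coding gene 2010111I01Rik on the same strand. Mir23b overlaps no exon of that gene, while Mir27b and Mir24-1 overlap exons of some of its annotated transcripts. The b-cluster also lies within Fancc, a Fanconi anaemia pathway gene on the opposite strand, and overlaps none of its exons. The mature sequences below, from RefSeq (GRCm38.p6), matched 7 of the 8 miRNAs by name, all but miR-23b-3p. They are shown to make clear which reads can be told apart, with the seed in capitals.
miR-23a-3p: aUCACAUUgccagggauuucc
miR-27a-3p: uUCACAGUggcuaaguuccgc
miR-27b-3p: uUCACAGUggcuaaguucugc
miR-27b-5p: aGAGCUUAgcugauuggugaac
miR-24-3p: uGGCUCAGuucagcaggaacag
miR-24-1-5p: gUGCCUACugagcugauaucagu
miR-24-2-5p: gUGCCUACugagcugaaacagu

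The miR-27 pair shares 1 seed and differs by a single base, C19U, counted from 1 at the 5′ end with miR-27a-3p given first. The 2 miR-24 5p arms share a seed and their first 16 bases. No other of 605 listed miRNAs with a sequence carried any of the 5 seeds shown. miR-23b-3p, for which no sequence was matched, was left out of that search. Whether it shares the seed of miR-23a-3p is therefore not shown here. The hairpins of miR-24 are printed whole, with both mature arms in capitals, because the 3p arm is the same in both and only the 5p arm names the locus.
Mir24-2: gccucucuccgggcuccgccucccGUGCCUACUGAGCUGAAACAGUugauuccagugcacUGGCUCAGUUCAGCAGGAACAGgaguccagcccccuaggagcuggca
Mir24-1: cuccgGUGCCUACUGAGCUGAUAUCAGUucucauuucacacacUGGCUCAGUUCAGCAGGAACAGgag

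Reads of miR-24-3p therefore cannot be assigned to a cluster. How reads of near-identical miRNAs were divided is not given in the sources used here. Hence the split between miR-27a-3p and miR-27b-3p, and between miR-23a-3p and miR-23b-3p, carries that uncertainty.

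BAT libraries held 104064 to 172279 miRNA reads and plasma libraries 1209116 to 1798169. The clusters took 2.66% (95% Wilson interval 2.57 to 2.76) to 5.16% (5.06 to 5.27) of the reads of a BAT library and 3.56% (3.53 to 3.59) to 5.97% (5.94 to 6.01) in plasma. The library Sed BAT 2 stood apart. Its most abundant miRNA was miR-126a-3p, an endothelial marker, where every other BAT library had miR-378a-3p. Its 4 brown fat markers summed to 6.52% of reads (6.38 to 6.68), against 17.8% to 29.8% in the others, and its 2 endothelial markers to 10.6% (10.4 to 10.8), against 4.96% to 8.49%. By CPM (defined below) miR-378a-3p was low, at 28671 against 181709 to 276215 in the others, as was miR-455-3p at 15.1. miR-365-3p was highest in Sed BAT 2, at 9708 CPM against 2187 to 5043, and miR-193b-3p lay within the range of the others. miR-126a-3p stood at 82259 CPM, below the 85644 of Exe BAT 2, and miR-126a-5p was lowest, at 1093. The muscle markers of Sed BAT 2 summed to 5.50% of reads, against 2.46% to 3.50% in the other BAT libraries. Of these markers miR-1a-3p was highest there, at 24119 CPM against 4753 to 13838. miR-133a-3p was lowest, at 10190 CPM, and miR-133b-3p and miR-206-3p lay within the range of the others. In plasma the 7 red cell markers summed to 14.1% (95% Wilson interval 14.04 to 14.16) and 14.99% (14.93 to 15.04) in Exe, against 70.1% (70.06 to 70.22) and 52.8% (52.71 to 52.86) in Sed, nearly all of it miR-451a in Sed. All 7 markers had reads in plasma, and the sum does not stand for each of them. Of 6 tested there, 4 had log2 fold changes of Exe over Sed above 0 and 2 below, with a median of 2.72. miR-451a stood at -3.03, and none passed by edgeR. In bulk vesicle RNA, fewer vesicles of a cell type and less of a miRNA per vesicle cannot be told apart. Intervals cover counting error only.

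Within BAT vesicles the 3p arms were abundant and the 5p arms scarce. One read is one mature miRNA of nearly fixed length, so levels are given as CPM, counts scaled to 1000000 reads with edgeR's trimmed mean of M-values (TMM) within each table, with no length correction. In Exe BAT libraries miR-23a-3p averaged 14981 ± 1070 CPM, miR-24-3p 13078 ± 1875, miR-23b-3p 8084 ± 903, miR-27b-3p 7995 ± 1895 and miR-27a-3p 5455 ± 732 (SD, n = 3). The ranges of miR-23a-3p and miR-24-3p overlapped, as did those of miR-23b-3p and miR-27b-3p and those of miR-27b-3p and miR-27a-3p. The 5p arms followed in the order miR-24-2-5p at 362 ± 4.81 CPM, miR-27b-5p at 90.9 ± 21.3 CPM and miR-24-1-5p at 40.4 ± 20.02 CPM in Exe BAT, with no overlap between neighbours.

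**Figure D1:**
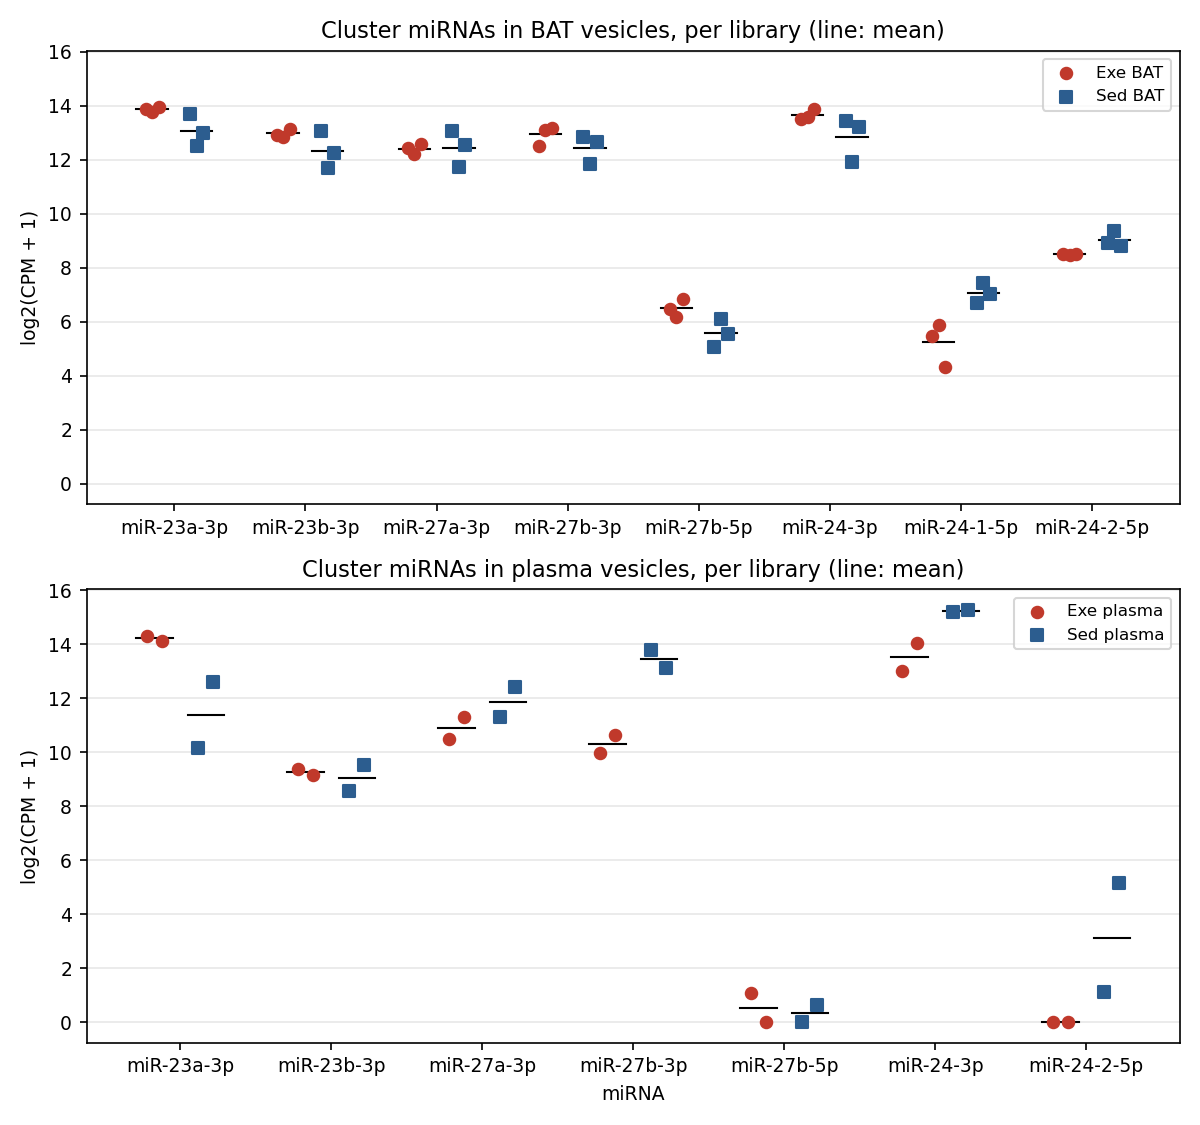
Levels of the cluster miRNAs in each library, as log2(CPM + 1), with Exe libraries as circles and Sed libraries as squares and a line at each group's mean on that scale (BAT above, plasma below). In BAT the 3p arms lie well above the 5p arms, and in plasma miR-27b-3p and miR-24-3p lie lower in both Exe libraries than in both Sed libraries while miR-23a-3p lies higher.

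In BAT vesicles, Exe was compared with Sed for each member. By edgeR's quasi-likelihood test with Benjamini-Hochberg adjustment over all 199 miRNAs, 1 of the 8 changed, miR-24-1-5p, which was lower in Exe. Over all miRNAs 22.6% were called, 9.55% higher and 13.1% lower in Exe. The median log2 fold change of the 8 was 0.50, beside -0.06 over all miRNAs. None of the 5 abundant 3p arms passed.

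Among the 3p arms miR-23a-3p had the smallest p. It stood at 15197, 13819 and 15927 CPM in Exe BAT, against 13120, 5788 and 8176 CPM in Sed BAT. All 3 Exe libraries lay above all 3 Sed libraries, and the log2 fold change was 0.73 ± 0.30 (SE), with an edgeR adjusted p of 0.105. miR-23b-3p stood at 7712, 7427 and 9114 CPM in Exe, against 8499, 3339 and 4815 CPM in Sed. Its groups overlapped through Sed BAT 1, and its log2 fold change was 0.54 ± 0.33 (edgeR adjusted p = 0.238). Without Sed BAT 1 both passed, miR-23a-3p at 1.11 (edgeR adjusted p = 0.021) and miR-23b-3p at 0.995 (edgeR adjusted p = 0.0309). miR-23a-3p also passed with upper-quartile scaling, at 0.91 (edgeR adjusted p = 0.0425).

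The miR-27 pair, the members tied most directly to brown fat, showed no call. miR-27a-3p stood at 5491, 4706 and 6168 CPM in Exe, against 8511, 3362 and 6011 CPM in Sed. The Sed libraries spanned the whole Exe range, the log2 fold change was -0.13 ± 0.32 (edgeR adjusted p = 0.785), and its sign turned under upper-quartile scaling, to 0.06. miR-27b-3p stood at 5823, 8853 and 9309 CPM in Exe, against 7403, 3640 and 6514 CPM in Sed. Exe BAT 1 fell within the Sed range, and the log2 fold change was 0.45 ± 0.31 (edgeR adjusted p = 0.302).

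miR-24-3p, the arm shared by both clusters, stood at 11699, 12322 and 15212 CPM in Exe, against 11133, 3867 and 9446 CPM in Sed. The groups did not overlap, yet the log2 fold change of 0.68 ± 0.36 missed the threshold (edgeR adjusted p = 0.182). Every one of the 5 abundant 3p arms had its lowest BAT value in Sed BAT 2. Without that library the log2 fold changes were 0.57 for miR-23a-3p, 0.36 for miR-23b-3p, -0.33 for miR-27a-3p, 0.28 for miR-27b-3p and 0.43 for miR-24-3p, and none passed. The part that the endothelial, brown fat and muscle marker shares of Sed BAT 2 play in these values was not tested.

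Both 5p arms of miR-24 had fold changes below 0, while their shared 3p arm had one above 0. miR-24-1-5p, the arm that marks the b-cluster, had 5, 9 and 3 reads in Exe BAT, against 16, 23 and 14 reads in Sed BAT. In CPM this was 43.7, 58.6 and 19.0 in Exe, against 103, 173 and 128 in Sed. All Exe values lay below all Sed values, and the log2 fold change was -1.72 ± 0.45, with an edgeR adjusted p of 0.0234. The call rests on few reads. It was lost without Exe BAT 1 (-1.72, edgeR adjusted p = 0.0788), without Exe BAT 3 (-1.25, edgeR adjusted p = 0.113) and without Sed BAT 3 (-1.74, edgeR adjusted p = 0.0582). Without Sed BAT 2, the library with the most reads of it, the value was -1.42 and still passed.

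miR-24-2-5p, which marks the a-cluster, had 42, 55 and 57 reads in Exe BAT, against 75, 87 and 49 in Sed BAT. Its level was 367, 358 and 360 CPM in Exe, against 481, 656 and 448 CPM in Sed. The Exe libraries were nearly level and all below the Sed libraries, with a log2 fold change of -0.55 ± 0.25 that did not pass (edgeR adjusted p = 0.129). Without Sed BAT 2 the value was -0.29. The remaining 5p arm, miR-27b-5p, had 10, 11 and 18 reads in Exe BAT, against 5, 9 and 5 in Sed BAT, and a log2 fold change of 0.91 ± 0.41 (edgeR adjusted p = 0.1302).

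Set against the 3p arm of the same library, reads of both miR-24 5p arms came to 35.1, 33.8 and 24.9 per 1000 reads of miR-24-3p in Exe BAT. In Sed BAT they came to 52.4, 214 and 60.9, so the groups did not overlap and Sed BAT 2 was far above the rest. The a-cluster arm outnumbered the b-cluster arm by 8.40, 6.11 and 19.0 times in Exe BAT and by 4.69, 3.78 and 3.50 times in Sed BAT. On the log2 scale, with 0.5 added to each count, that ratio was 1.22 higher in Exe than in Sed. The exact permutation test gave a two-sided p of 0.1, the smallest that 3 against 3 libraries allow (adjusted p = 0.2 over 4 ratios).

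**Figure D2:**
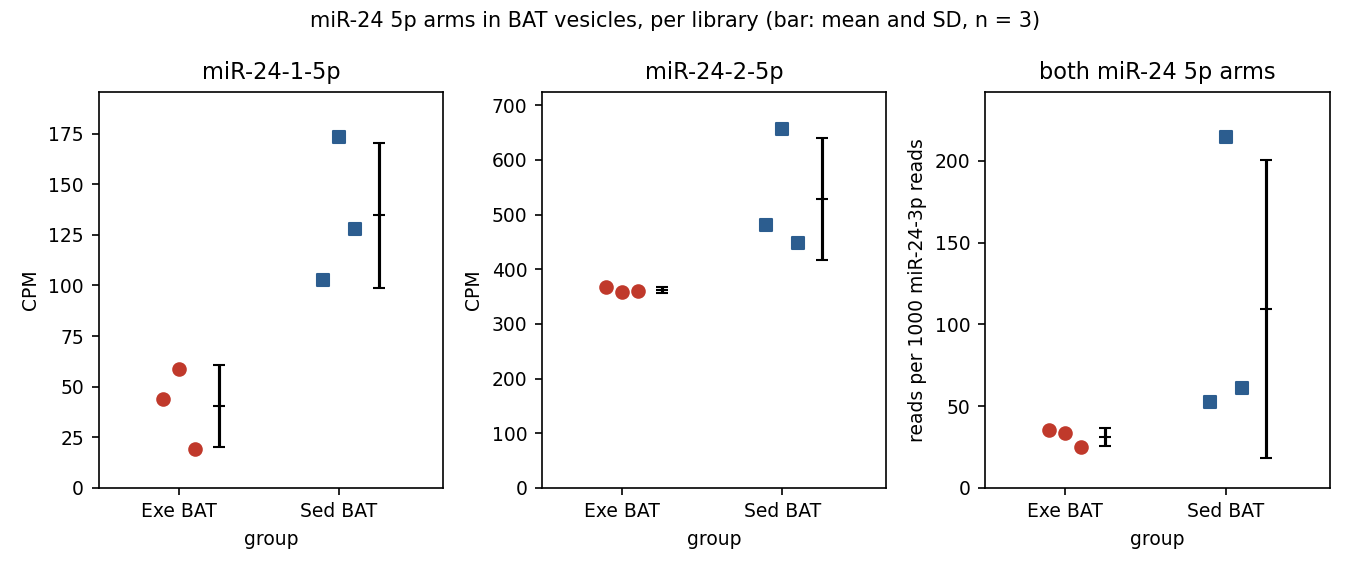
The miR-24 5p arms in BAT vesicles, as CPM for each arm and as reads of both arms per 1000 reads of miR-24-3p, with 1 point per library and a bar for the mean and SD (n = 3). Exe libraries sit below Sed libraries in all 3 panels, and Sed BAT 2, at 214 per 1000, stands far above the others on the right.

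Across the members, CPM ranges of Exe BAT and Sed BAT did not overlap for 5 of 8: miR-23a-3p, miR-27b-5p and miR-24-3p above, and miR-24-1-5p and miR-24-2-5p below. Over all 199 miRNAs 44.2% did not overlap, 21.1% higher and 23.1% lower in Exe. Of the other arms and antisense miRNAs of the same hairpins, 2 passed the BAT filter. miR-3074-2-3p, made from the strand opposite Mir24-2 in the stretch that gives miR-24-2-5p, had 19, 22 and 21 reads in Exe BAT, against 11, 5 and 9 in Sed BAT. It rose by 1.21 ± 0.37 on the log2 scale (edgeR adjusted p = 0.0423). Whether strand was used in counting is not given in the sources used here. Without it, reads of miR-3074-2-3p and miR-24-2-5p from that stretch cannot be told apart. The counts listed for the 2 were nevertheless not the same. Exe plasma 1 had 188 reads of miR-3074-2-3p and 0 of miR-24-2-5p, and Sed plasma 2 had 13 and 61. How their reads were divided was not tested. The call was lost with DESeq2 (adjusted p = 0.0763), with no filter (edgeR adjusted p = 0.0732), with library size alone (edgeR adjusted p = 0.0544) and without any one BAT library but Sed BAT 3 (edgeR adjusted p of 0.0518 to 0.11). miR-27a-5p had 6, 50 and 45 reads in Exe BAT, against 19, 6 and 15 in Sed BAT, with overlapping groups and a log2 fold change of 1.16 ± 0.60 (edgeR adjusted p = 0.179). It passed without Exe BAT 1 (1.66, edgeR adjusted p = 0.0493).

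In plasma vesicles the same comparison covers circulating miRNA, with 2 libraries a group. edgeR called 0 of 182 miRNAs (0%), none of the 5 members tested among them. At an unadjusted p under 0.05 edgeR passed 60 miRNAs, 33% of those tested, while DESeq2 called 57 and limma-voom 35 at an adjusted p under 0.05. The median log2 fold change of the 5 was -1.001, beside 0.32 over all 182. That overall median moved to 0.95 with library size alone and to -0.59 with upper-quartile factors, so each value is best read against it.

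miR-23a-3p was the member that stood higher in Exe plasma. It had 20352 and 17832 CPM in Exe, against 1133 and 6235 CPM in Sed, with no overlap. Its log2 fold change was 2.37 ± 0.96 (edgeR adjusted p = 0.147). It passed with no filter (2.47, edgeR adjusted p = 0.0414) and without Sed plasma 2 (4.05, edgeR adjusted p = 0.000961). Its paralog miR-23b-3p had 662 and 562 CPM in Exe, between the 379 and 739 CPM of Sed, and a log2 fold change of 0.13 ± 1.40 (edgeR adjusted p = 0.949).

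miR-27b-3p stood lower in Exe plasma, at 1002 and 1574 CPM, against 13989 and 8823 CPM in Sed plasma. The groups lay far apart, and the log2 fold change was -3.15 ± 0.80 (edgeR adjusted p = 0.0899). It passed with DESeq2 (-3.26, adjusted p = 0.0181), with upper-quartile factors (-4.04, edgeR adjusted p = 0.0371), with no filter (-3.05, edgeR adjusted p = 0.0377), at a mean of at least 50 counts (-3.41, edgeR adjusted p = 0.0379) and without either Sed plasma library, at -2.68 without Sed plasma 1 (edgeR adjusted p = 0.0112) and -3.45 without Sed plasma 2 (edgeR adjusted p = 0.000398). miR-27a-3p had 1453 and 2517 CPM in Exe, against 2499 and 5448 CPM in Sed, where the ranges overlapped slightly and the log2 fold change was -1.001 ± 0.96 (edgeR adjusted p = 0.493).

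miR-24-3p was the most abundant member in Sed plasma. It had 8308 and 16785 CPM in Exe, against 37510 and 39573 CPM in Sed. Both Exe libraries lay below both Sed libraries, with a log2 fold change of -1.62 ± 0.61 (edgeR adjusted p = 0.123). Among the 5 tested members, 3 did not overlap between groups, while 59.3% of all 182 miRNAs did not (28.6% higher and 30.8% lower in Exe). The 5p members listed there were close to absent. Another 5p arm of these hairpins, miR-27a-5p, is not a member. It had 195 and 0 reads in Exe plasma, against 6 and 23 in Sed plasma. Its log2 fold change was 2.43 ± 2.86 (edgeR adjusted p = 0.59), with overlapping groups. miR-24-2-5p had 0 reads in both Exe plasma libraries, against 1 and 61 reads in Sed plasma. It was at least 28.8-fold lower in Exe, with the Exe group taken at a floor of 3 counts in all, and that bound is carried by Sed plasma 2. miR-27b-5p had 2 and 0 reads in Exe, against 0 and 1 in Sed, which is at the floor and allows no fold change.

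A further property of the plasma table moved with the groups. Beside each read count it lists a second whole number, never larger, whose making is not given in the sources used here. For the cluster miRNAs that number came to 83.1% and 82.0% of the read count in Exe, against 69.3% and 5.39% in Sed. With those values in place of reads, miR-27b-3p had a log2 fold change of -2.90, miR-24-3p of -1.27 and miR-23a-3p of 2.64, and of these 3 only miR-23a-3p passed (edgeR adjusted p = 0.0429). The part that the red cell share (in Sed nearly all miR-451a) and the second number play in the plasma differences was not tested. Exe and Sed plasma differ in both.

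The difference of the exercise effects between the sources was tested directly, in 1 edgeR fit of all 10 libraries over the miRNAs in both tables, with 234 tested. Of 7 members in it, 3 differed, all with the effect in BAT above the effect in plasma. Over all miRNAs 29.1% differed, 16.7% in that direction and 12.4% in the other. The median difference of the 7 was 1.55, beside 0.57 over all. For miR-27b-3p, effects of 0.45 in BAT and -3.15 in plasma in the separate fits gave a difference of 4.02 ± 0.64 in the joint fit (edgeR adjusted p = 0.00264). It passed under every alternative run, between 3.40 and 4.21 when 1 library was left out.

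For miR-24-3p the difference was 2.88 ± 0.66 (edgeR adjusted p = 0.00934). It missed the threshold with library size alone (1.70, edgeR adjusted p = 0.0568) and without Exe BAT 3 (2.37, edgeR adjusted p = 0.0578). For miR-24-2-5p the fitted difference was 7.17 ± 1.98 (edgeR adjusted p = 0.0286), but it rests on a group with 0 reads and is no bound. That value was 2.54 without Sed plasma 2 (edgeR adjusted p = 0.187), and the call was lost with limma-voom (4.72, adjusted p = 0.0684) and without any 1 BAT library or Exe plasma 2 (6.76 to 7.23, edgeR adjusted p of 0.052 to 0.0664). The other 4 did not pass, among them miR-27a-3p at 1.55 ± 0.87 (edgeR adjusted p = 0.185) and miR-23a-3p at -1.0004 ± 1.05 (edgeR adjusted p = 0.458). Of these, miR-27a-3p passed without Sed plasma 1 (2.24, edgeR adjusted p = 0.027), with upper-quartile factors (2.49, edgeR adjusted p = 0.0461) and with DESeq2 (1.66, adjusted p = 0.0496), and miR-23a-3p passed without Sed plasma 2 (-3.39, edgeR adjusted p = 0.011).

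**Figure D3:**
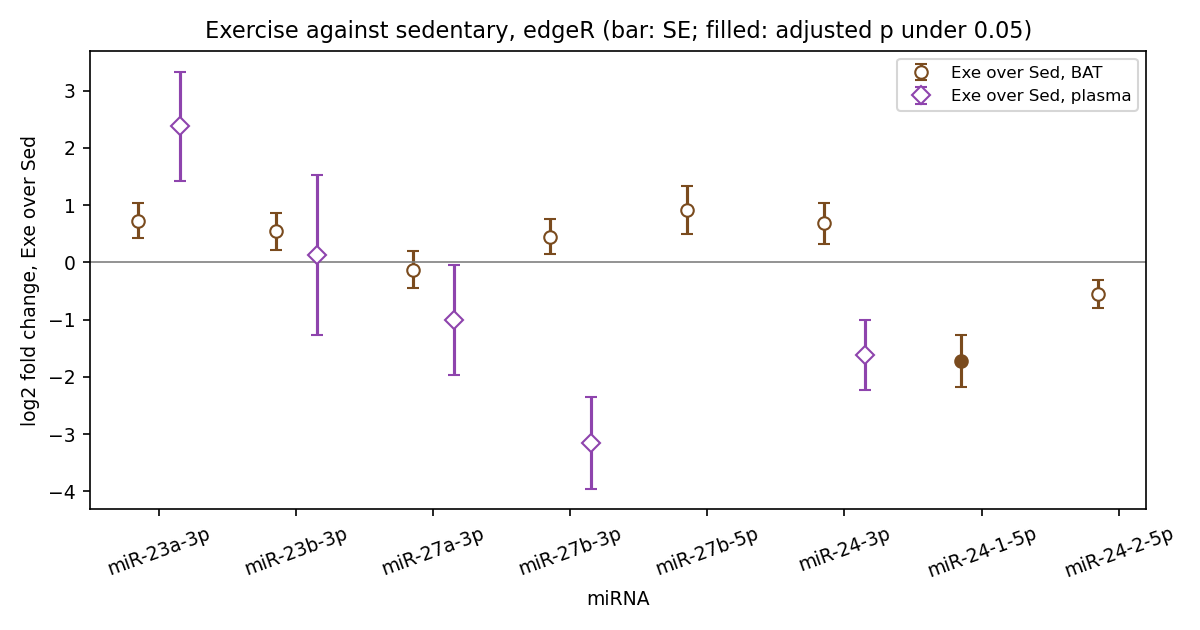
Log2 fold change of Exe over Sed for each member that passed the filter, with circles for BAT, diamonds for plasma, bars for the SE and filled symbols for an edgeR adjusted p under 0.05. miR-24-1-5p in BAT, at -1.72, is the only filled symbol, and the BAT and plasma values of miR-27b-3p (0.45 and -3.15) are the farthest apart.

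The balance of a-cluster and b-cluster miRNAs was compared within each library, where library scaling cancels. miR-23a-3p outnumbered miR-23b-3p in all 10 libraries. In BAT the ratio of read counts was 1.97, 1.86 and 1.75 in Exe, against 1.54, 1.73 and 1.70 in Sed. In plasma it was 30.7 and 31.7 in Exe, against 2.99 and 8.43 in Sed. Exe lay above Sed without overlap in both sources. The log2 difference was 0.17 in BAT (exact permutation p = 0.1, two-sided, the smallest possible, adjusted p = 0.2) and 2.64 in plasma (exact permutation p = 0.333, two-sided, the smallest that 2 against 2 allow).

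The ratio of miR-27a-3p to miR-27b-3p was 0.943, 0.532 and 0.663 in Exe BAT, against 1.15, 0.923 and 0.923 in Sed BAT, a log2 difference of -0.52 with overlapping groups (exact permutation p = 0.3, two-sided, adjusted p = 0.4). In plasma it was 1.45 and 1.599 in Exe, against 0.179 and 0.618 in Sed, a log2 difference of 2.20 (exact permutation p = 0.333, two-sided). miR-27b-3p was thus the more abundant of the pair in both Sed plasma libraries and the less abundant in both Exe plasma libraries.

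Pooled over the 23 and 27 pairs, a-cluster miRNAs made up 60.4% (95% Wilson interval 58.9 to 62.0), 53.2% (51.9 to 54.6) and 54.5% (53.3 to 55.7) of 3p reads in Exe BAT. In Sed BAT the share was 57.6% (56.4 to 58.9), 56.7% (54.6 to 58.8) and 55.6% (53.8 to 57.4), so the groups overlapped. In Exe plasma it was 92.9% (92.7 to 93.2) and 90.5% (90.2 to 90.8), against 20.2% (19.6 to 20.8) and 55.0% (54.5 to 55.5) in Sed plasma. The 2 Sed plasma libraries thus differed from each other by more than any 2 BAT libraries did. With the second plasma values the 23 ratio was 24.6 and 25.5 in Exe, against 6.86 and 2.66 in Sed, and the 27 ratio 1.44 and 1.58 in Exe, against 0.149 and 0.871 in Sed.

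**Figure D4:**
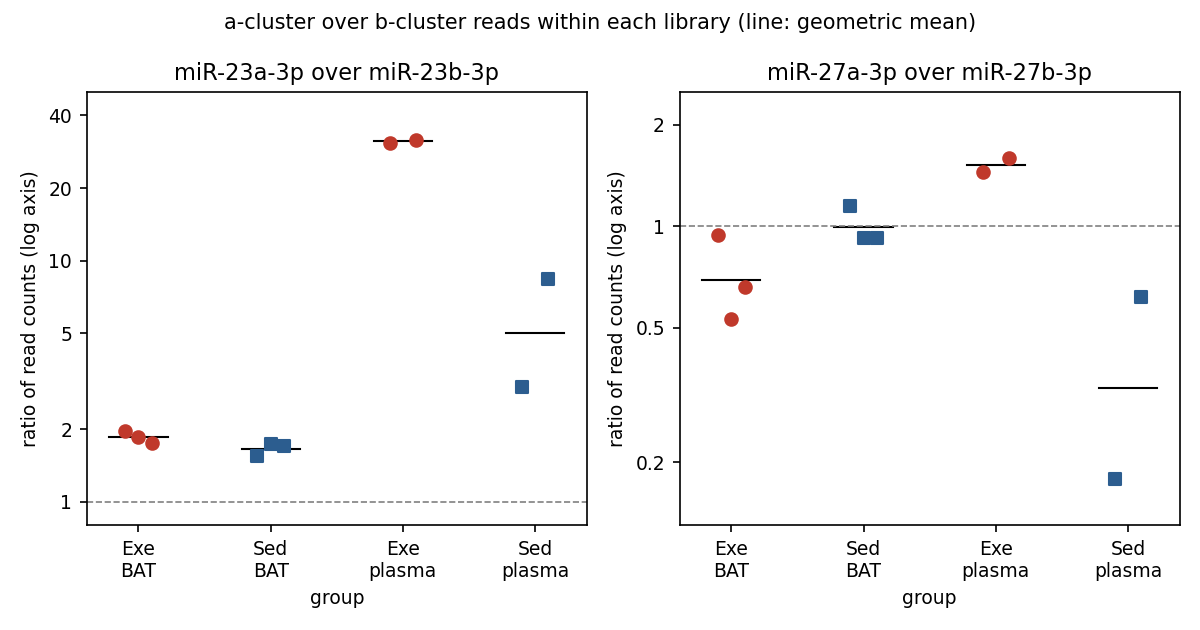
Ratio of a-cluster to b-cluster read counts in each library, for the miR-23 pair and the miR-27 pair, on log axes, with a line at each group's geometric mean and a dashed line at equality. The miR-23 ratio stays between 1.54 and 1.97 in BAT and reaches 31.7 in Exe plasma, and the miR-27 ratio falls on opposite sides of 1 in Exe plasma and Sed plasma.

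BAT and plasma vesicles were then compared for each member, in the joint fit. The vesicle source cannot be told apart there from the table it was deposited in or from a batch, and each value stands relative to the median over all miRNAs, a log2 value of 0.90 in Exe and 1.21 in Sed. That median moved up by 1.53 in Exe and 2.63 in Sed with library size alone, by 3.20 in Exe without Exe plasma 1 and by 1.43 in Sed without Sed plasma 2. In Exe libraries 5 of 7 members differed between BAT and plasma, where 66.7% of all 234 did (41% higher and 25.6% lower in BAT). In Sed libraries 4 of 7 differed, where 42.3% of all did (22.2% higher and 20.1% lower). Among the members, miR-24-2-5p and miR-27b-5p had missed the plasma filter and entered the joint fit through their BAT reads. The filter thus favoured a higher level in BAT for these arms, and their calls, in Exe or Sed, are not support for it. miR-24-3p was lower in BAT in both, by a log2 value of -1.67 ± 0.45 in Exe (edgeR adjusted p = 0.00839) and -4.55 ± 0.49 in Sed (edgeR adjusted p = 9.2e-05), and the Exe value missed the threshold with library size alone (-0.26, edgeR adjusted p = 0.602), with upper-quartile factors (-0.58), at a mean of at least 50 counts (-0.48) and without Exe plasma 2 (-1.20, edgeR adjusted p = 0.0576). On the joint scale it had 7036, 6702 and 8951 CPM in Exe BAT, against 22123 and 26022 CPM in Exe plasma. In Sed BAT it had 6028, 2353 and 5279 CPM, against 77301 and 136764 CPM in Sed plasma.

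For miR-27b-3p the value passed in Sed, at -3.17 ± 0.44 (edgeR adjusted p = 0.000424), and not in Exe, at 0.85 ± 0.44 (edgeR adjusted p = 0.111), a value next to the median of 0.90 over all miRNAs. The Exe value passed without Sed plasma 1 (0.95, edgeR adjusted p = 0.0486), without Sed plasma 2 (1.01, edgeR adjusted p = 0.0381) and with library size alone (2.29, edgeR adjusted p = 0.00193). The gap between these values is the difference of 4.02 given above. With library size alone the Sed value was -0.58 (edgeR adjusted p = 0.236). miR-27a-3p was -1.84 ± 0.60 in Sed (edgeR adjusted p = 0.0292), a sign that turned to 0.78 with library size alone, and the call was lost without any 1 of the BAT libraries (-1.84 to -1.15) or Sed plasma 2 (-0.42). The miR-23 pair passed in Exe, where miR-23a-3p was -2.24 ± 0.74 (edgeR adjusted p = 0.0217) and miR-23b-3p 1.83 ± 0.72 (edgeR adjusted p = 0.0442). The value of miR-23b-3p lies nearer to the median of all miRNAs than the largest shift of that median between scalings in Exe. The call of miR-23a-3p was lost without Exe BAT 1 (-2.25) or Exe plasma 1 (-1.63) and with library size alone (-0.76), and that of miR-23b-3p without Sed BAT 3, Exe BAT 1, Exe BAT 2 or Exe plasma 2 (1.76 to 1.93).

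The 5p members had 0 to 2 reads in a plasma library despite its greater depth, except for miR-24-2-5p in Sed plasma 2. This does not hold for miR-27a-5p, not a member, which had 195 reads in Exe plasma 1. miR-24-2-5p had 154 reads over the Exe BAT libraries and 0 in Exe plasma, at least 130-fold higher in BAT with plasma taken at the floor of 3 counts. In Sed it had 260, 399 and 250 CPM on the joint scale in BAT, against 2.40 and 119 CPM in plasma, and the log2 value of 2.30 ± 1.27 did not pass (edgeR adjusted p = 0.1798). That Sed value was 7.003 without Sed plasma 2 (edgeR adjusted p = 0.00313). miR-27b-5p had 39 reads in Exe BAT and 2 in Exe plasma, a ratio of 49.4 on the joint scale (95% counting interval 12.8 to 422). In Sed it had 19 reads in BAT and 1 in plasma, a ratio of 25.1 (3.99 to 1044), and the fitted Sed difference passed (edgeR adjusted p = 0.0218), though not without Sed plasma 1 (edgeR adjusted p = 0.101). Measured within libraries, the log2 ratio of miR-27b-5p to miR-27b-3p was higher in every BAT library than in every plasma library (exact permutation p = 0.00952, two-sided, the smallest that 6 against 4 allow, adjusted p = 0.0143 over 3 ratios). With 0 or 1 reads of miR-27b-5p in 3 of 4 plasma libraries, the size of that gap is set by the pseudocount, at 5.88 log2 units with 0.5, 5.29 with 1 and 3.94 with 5 counts added. The miR-23a-3p to miR-23b-3p ratio was 2.84 lower in BAT than in plasma on the log2 scale, also without overlap (exact permutation p = 0.00952, two-sided, adjusted p = 0.0143). These tests pooled Exe and Sed libraries of a source. The mean log2 ratio was 0.89 in Exe BAT against 4.96 in Exe plasma, and 0.73 in Sed BAT against 2.33 in Sed plasma. The miR-27a-3p to miR-27b-3p ratio, pooled in the same way, differed by 0.22 (exact permutation p = 0.733, two-sided), with overlapping sources. That pooled value joins differences of opposite sign. In Exe the mean log2 ratio was -0.53 in BAT and 0.61 in plasma, and every BAT library lay below every plasma library. In Sed it was -0.01 in BAT and -1.59 in plasma, and every BAT library lay above every plasma library.

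The likeness of profiles was measured over the 6 BAT libraries as the root mean square distance between centred log2(CPM + 1) values, a description over libraries of 2 groups. Among 198 other miRNAs, miR-23b-3p was the nearest to miR-23a-3p, at 0.11, and the reverse held, although the pair comes from different chromosomes. How reads were divided between this pair is not given, and the part of that division in their likeness was not tested. The next nearest to miR-23a-3p were miR-223-3p and miR-296-5p. miR-27a-3p, which shares a cluster with miR-23a-3p, ranked 30th for it, at 0.44, while miR-27b-3p ranked 6th for its cluster partner miR-23b-3p, at 0.28. Nearest to miR-27a-3p were miR-574-3p (0.13), miR-181c-5p and miR-100-5p, and nearest to miR-27b-3p were miR-140-3p (0.18), miR-223-3p and miR-181c-5p. For miR-24-3p they were miR-22-3p (0.22), miR-142a-5p and miR-23a-3p.

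The clusters were set beside 3 lists of miRNAs chosen by role, some members of which are abundant in several tissues. Of 11 miRNAs known to restrain brown fat, 3 of them members here, all were tested in BAT, 2 fell in Exe and 0 rose, where 13.1% of all miRNAs fell and 9.55% rose, and the median log2 fold change was 0.22, beside -0.06 over all miRNAs. The 2 that fell, miR-34a-5p and let-7i-5p, are not cluster miRNAs. Of 9 miRNAs known from brown fat, all were tested, 3 rose in Exe BAT (miR-193b-3p, miR-455-3p and miR-328-3p) and none fell, beside the same 9.55% and 13.1% of all miRNAs. The median was 0.41, and 4 of the 9 had values below 0, the lowest for miR-365-3p at -1.08 (edgeR adjusted p = 0.0547). Of 10 endothelial miRNAs, 8 were tested, none passed in either direction by edgeR, and the median was -0.07. In plasma, where edgeR called no miRNA at all, 7, 4 and 7 of these lists were tested, with medians of -1.001, -5.32 and 0.20 in the same order.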

How the data were processed

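Per the file headers, each vesicle source has its own table of read counts, 1 per mature miRNA and library. The BAT table as deposited also gives RPM, each value equal to the count over 1 total per library (18924904 to 21160747 reads). The plasma table as deposited gives a second whole-number count. Bowtie 0.12.2, mm8 and mm9 are named, with no role, per the submitters' processing notes. Counting program, miRBase release, trimming and use of strand: not given in the sources used here. RNA was extracted with Trizol, per the labels' protocols.

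Counts were tested as the authors deposited them, with R 4.3.3 and edgeR 4.0.16. TMM factors, filterByExpr and robust quasi-likelihood fits were used per source, beside a joint fit of 4 group means over miRNAs in both tables. Adjusted p-values are Benjamini-Hochberg over all miRNAs tested, with a threshold of 0.05. The SE is the size of the log2 fold change divided by the root of its F statistic. Ratios within a library used a pseudocount of 0.5 and exact two-sided permutation tests (scipy 1.17.1). Floors are 3 counts. Floors and intervals hold counting error alone, since PCR copies are not independent molecules. Alternatives used DESeq2 1.42.0, limma 3.58.1, other scalings and filters, a replicate block and each library left out. Scripts were tested on simulated data.

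The members, lists and tests were chosen with earlier results of these data known. Beside the members, the rule named other arms of the hairpins, the 3 nearest profiles of each 3p arm, and list members of smallest p, to which the third brown fat miRNA past the threshold was added after its value was seen. Sequences are RefSeq's, and gene annotation is on GRCm38, which may differ from the build the reads were aligned to. No deposited coordinates were used.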

Additional observations from a re-analysis of the deposited data

Results flagged for a closer look

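For 3 members the effect of exercise differed between BAT and plasma in the test of that difference itself (edgeR's quasi-likelihood test, joint fit, BAT minus plasma). miR-27b-3p differed by 4.02 log2 units, and its CPM was higher in 2 of 3 Exe BAT libraries than in any Sed BAT library and lower in 2 of 2 Exe plasma libraries than in any Sed plasma library. miR-24-3p differed by 2.88, above every Sed library in 3 of 3 Exe BAT libraries and below every Sed library in 2 of 2 Exe plasma libraries. miR-24-2-5p differed by 7.17, a fitted value set by 0 reads in Exe plasma and by the 61 reads of Sed plasma 2. It entered the joint fit through its BAT reads. Red cell markers took 14.1% and 14.99% of Exe plasma reads, against 70.1% and 52.8% of Sed plasma reads, in Sed nearly all miR-451a. Of 6 tested in plasma, 4 had log2 fold changes above 0. The part of these markers in the differences was not tested.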

How the results depend on the processing

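Of 605 values of members and neighbouring arms under alternatives, 503 kept direction and side of the threshold, 31 newly passed, 50 no longer passed and 21 turned sign. Of 99 ratio values 97 kept both. Counts of calls moved by over 1.5 times as follows. In BAT (45 calls) there were 21 requiring a mean of at least 50 counts, 25 with the replicate block and 16 to 56 with 1 library left out. In plasma (0 calls) there were 4 with upper-quartile factors, 10 with library size alone, 17 with no filter, 29 at a mean of 50, 57 with DESeq2, 35 with limma-voom, 1 without the 3 most abundant miRNAs, 7 with the block, 11 with the second values and 3 to 27 with 1 library left out. For the difference of effects (68 calls) there were 105 with DESeq2, 45 with the block and 36 to 119 with 1 library left out. For Sed BAT against Sed plasma (99 calls) there were 152 with library size alone and 77 to 149 with 1 library left out, and for Exe BAT against Exe plasma (156 calls) 82 at a mean of 50. Sign changes follow, and their cause was not tested. In BAT miR-27a-3p was 0.062 with upper-quartile factors, 0.037 at a mean of 50, 0.042 with totals implied by RPM and -0.33 to 0.23 with 1 library left out. In plasma miR-23b-3p was -0.87 with upper-quartile factors, -0.24 at a mean of 50, -0.46 with the second values and -0.19 to 0.86 with 1 left out. In the difference of effects miR-23a-3p was 0.057 with upper-quartile factors, miR-23b-3p -0.22 with library size alone and -0.20 to 1.60 with 1 left out, and miR-27b-5p -0.21 with library size alone and -1.46 to 3.05 with 1 left out. In Sed BAT against Sed plasma miR-23a-3p was 1.41 with library size alone and -2.03 to 1.32 with 1 left out, and miR-27a-3p 0.78 with library size alone. In Exe BAT against Exe plasma miR-27a-3p was 0.83 with upper-quartile factors, 1.13 with library size alone, 0.90 at a mean of 50 and -0.52 to 0.069 with 1 left out. With 1 left out the log2 ratio of miR-27b-5p to miR-27b-3p was -0.052 to 0.97 for Exe BAT minus Sed BAT, and that of miR-27a-3p to miR-27b-3p -0.44 to 0.61 for BAT minus plasma. Same-numbered libraries did not deviate together in BAT (correlations of 0.0042, -0.083 and -0.12). In plasma the value was -0.076, but with 2 libraries a group the deviations mirror each other, so it cannot decide. Whether same-numbered libraries share more than a number is therefore not settled. With the block miR-24-1-5p was -1.75 (edgeR adjusted p = 0.0589) and miR-3074-2-3p 1.24 (edgeR adjusted p = 0.0888), and no other BAT call of a member changed. Where a plasma arm is left with 1 library, it is assumed to vary like the other group. With 3 to 23 reads of miR-24-1-5p a library, and few plasma reads of the 5p members, depth limits the 5p values.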
